A study of Mus musculus with 8 samples.

Results

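The chemokines described here are 7 genes that attract lymphocytes through receptors other than CXCR3, and they were chosen by name from the 20057 genes listed for sorted tumor endothelial cells. They are Ccl5, the CCR7 ligands Ccl19 and Ccl21a, the CXC chemokines Cxcl12 and Cxcl13, and the membrane-anchored chemokines Cxcl16 and Cx3cl1, and all 7 of 7 were found and passed the expression limit for testing. Male C57BL/6 mice aged 8 weeks were implanted under the skin with 250000 B16-F10 melanoma cells, and antibody was injected next to the tumor on day 13 and again on day 16, 30 µg each time. The antibody was agonistic CD40 mAb (FGK4.5) in 4 mice and a rat IgG2a isotype control (2A3) in the other 4, and by the sample labels tumors were taken the day after the last injection. Live cells with CD31, a surface protein of endothelium, and without CD45, a surface protein of leukocytes, were sorted, about 100000 per tumor, and each tumor gave 1 library. Libraries are called by mouse, with 5N, 6L, 6R and 10N from agonistic CD40 mAb treated tumors (treated libraries) and 5L, 7N, 8N and 9L from isotype control treated tumors (control libraries).

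Chemokines are small secreted proteins that bind receptors on passing leukocytes and are held on the vessel surface by heparan sulfate chains, where they trigger arrest and crossing of the vessel wall. CCL19 and CCL21 guide naive T cells and dendritic cells that carry CCR7, CXCL13 guides B cells that carry CXCR5, and CXCL12 acts on CXCR4 on nearly all leukocytes. CCL5 attracts activated T cells and monocytes, while CXCL16 and CX3CL1 are made as membrane proteins that hold cells with CXCR6 or CX3CR1 and are released by proteases.

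Values are gene counts divided by a size factor of the library, and are called normalized reads below. The libraries held between 2971689 and 64938728 reads on genes, so that 1 read was worth 2.44 normalized reads in 5L, the shallowest library, and 0.118 in 5N, the deepest. The 3 shallowest libraries, 5L, 7N and 8N, all belonged to the isotype control. A gene was called when the ratio of group means reached 1.5 in either direction with an unadjusted p of at most 0.05 in limma, the threshold of the study. Of 12969 genes tested, 166 (1.28%) were called higher with agonistic CD40 mAb and 31 (0.239%) lower. Only 2 genes (0.0154%) had an adjusted p under 0.05, and none of the 7 chemokines was among them. The endothelial markers Pecam1, Cdh5, Kdr, Tek, Tie1, Vwf, Erg and Emcn summed to 34130 to 50920 normalized reads in treated and 31140 to 42580 in control libraries, and none of the 8 was called. Melanoma markers summed to 35280 to 59930 in treated and 38250 to 91850 in control libraries, highest in 5L, and fibroblast markers to 90020 to 185100 and 67370 to 160100. Marker RNA of further cell types was thus present, and in such bulk RNA fewer cells of a type and less RNA per cell cannot be told apart.

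Ccl19 and Ccl21a lie on the same strand of chromosome 4, 16283 bases apart, and bind the same receptor. The sequences before their starts are shown because the treatment groups lay apart for Ccl19 and overlapped for Ccl21a. Both are read 5′ to 3′ on the minus strand from the RefSeq windows of GRCm38.p6, up to the first base of the protein-coding transcript, with a match to the interferon-stimulated response element in capitals. The Ccl19 stretch is chr4:42756544-42756615, which overlaps a non-coding transcript of the same gene at its 3′ end, and the Ccl21a stretch is chr4:42773994-42774241.
Ccl19: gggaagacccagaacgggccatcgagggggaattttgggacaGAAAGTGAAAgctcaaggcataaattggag
Ccl21a: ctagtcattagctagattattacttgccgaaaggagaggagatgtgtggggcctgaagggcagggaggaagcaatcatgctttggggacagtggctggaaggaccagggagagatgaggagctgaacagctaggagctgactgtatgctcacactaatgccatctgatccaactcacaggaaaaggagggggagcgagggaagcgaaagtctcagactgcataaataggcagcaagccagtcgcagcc

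The element was searched as GAAANNGAAA on both strands of windows that reach from 250 bases before each RefSeq start into the gene, and 3.44% of 32851 such windows hold it. The Ccl19 match, GAAAGTGAAA at chr4:42756564-42756573, lies 208 bases before the RefSeq start of that gene and within its non-coding transcript. Windows were present for 5 of the 7 genes, Ccl19, Ccl21a, Cxcl12, Cxcl13 and Cx3cl1, and the other 4 hold no such run of letters. The gamma-activated site, searched as TTCNNNGAA, occurs in 8.3% of all windows and the NF-κB motif in 8.46%, and neither occurs in any of the 5.

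Ccl21a belongs to a group of near-identical gene copies, which bears on how its reads are counted. Of the 50-base windows in its transcripts, 71.6% also occur in transcripts of other genes, most of them in Gm21541 and Gm13304. The coding sequence of 402 bases differs from that of Ccl21b, Gm10591, Gm21541 and Gm13304 by 2 substitutions, T84A and C194T, with positions counted from 1 at the first coding base and the Ccl21a base first. Bases 164 to 224 of both kinds of copy are shown to make this visible, with the base at position 194 in capitals.
Ccl21a: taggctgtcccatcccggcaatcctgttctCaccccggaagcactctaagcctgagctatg
Ccl21b: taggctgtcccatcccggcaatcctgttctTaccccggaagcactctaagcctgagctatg

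For Ccl21c, Gm21541, Gm13304 and Gm10591 the deposited values were identical in all 8 libraries, from 31.8 normalized reads in 5L to 123 in 6L. Ccl21b, in contrast, stood between 0 and 18.7. Gm1987, a gene model listed separately, stood slightly below Ccl21a in every library, from 75.8 in 5L to 570 in 6L. Ccl21a values are therefore uncertain as to which copy they came from. Ccl19 is affected too, since 52.0% of its 50-base windows occur in other transcripts, all of them in Gm2564, whereas Ccl5, Cxcl12, Cxcl13 and Cx3cl1 share none.

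The 7 chemokines were picked with results of these libraries known, so their differences between treatments are given as a description and without p-values. Ccl5 and Ccl19 were called higher, none was called lower, and for these 2 of 7 genes every library with agonistic CD40 mAb lay above every isotype control library, an order found for 1.09% of all genes tested (1.57% of genes did not overlap in either direction). Ccl5 and Ccl19 passed the expression limit, a larger group mean above 10, only through the treated libraries. Their calls and their order therefore give no independent support. For 6 of 7 genes the log2 difference was above 0, as it was for 51.3% of all genes tested. The median log2 difference of the 7 was 0.76, and 0.38 without library 5L. The plot of chemokine values by library shows the 8 libraries for each gene.

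**Figure D1:**
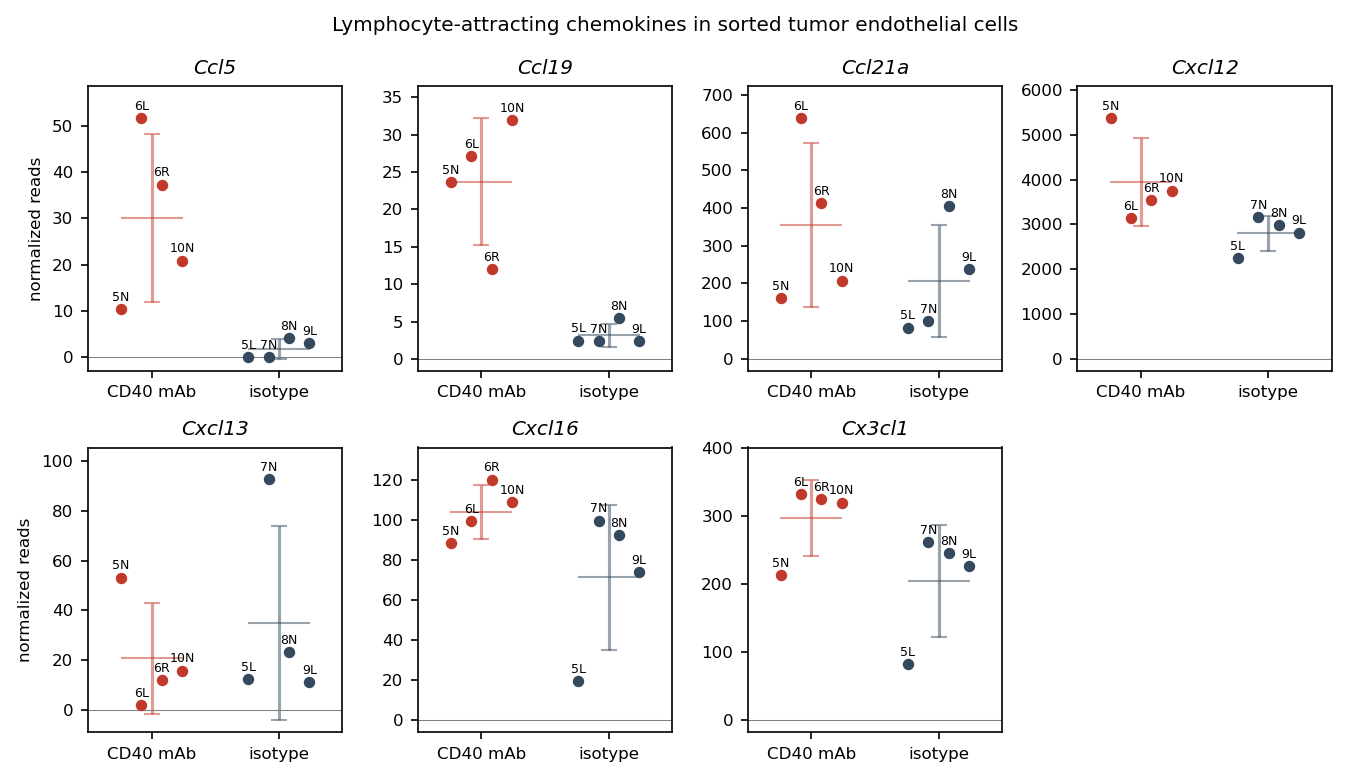
Normalized reads of the 7 chemokines (vertical axes, each with its own scale) in the 4 treated and the 4 control libraries, labelled by mouse. Horizontal lines are group means and vertical bars SD. The groups lie apart for Ccl5 and Ccl19 and overlap for the other 5 genes.

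Ccl5 (ENSMUSG00000035042.2, chr11:83525778-83530518, minus strand) had the largest difference of the 7. With agonistic CD40 mAb it stood at 10.4 normalized reads in 5N, 51.7 in 6L, 37.3 in 6R and 20.9 in 10N. With isotype control it was at 0 in 5L and 7N, at 4.08 in 8N and at 3.03 in 9L. The groups did not overlap, although the lowest treated library, 5N, lay much closer to the isotype control than 6L did. Means were 30.1 ± 18.2 and 1.78 ± 2.10 (SD, n = 4 each), a ratio of 16.9 and a log2 difference of 3.65 with a standard error of 0.73. These values rest on few reads, 323 in treated and 17 in control libraries. The exact 95% Poisson interval of 5N, from 8.31 to 12.8 normalized reads, overlapped those of 5L, 7N and 8N, whose upper bounds were 9.01, 8.78 and 11.9, and lay above that of 9L, which ended at 5.09. Without 8N the ratio was 29.7, and without the 2 shallowest libraries, 5L and 7N, it was 8.45, with 3.03 and 4.08 left as isotype control values.

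T and NK cells are known as strong sources of CCL5, and their markers were measured beside it. Cd3d was at 0 in all 8 libraries, and Cd3e, Cd3g and Nkg7 did not exceed 1.16 normalized reads in any. The 13 T and NK cell markers in the file summed to 42.4 to 81.5 normalized reads in treated and 30.9 to 60.9 in control libraries. Most of that sum was Lck, a kinase of T-cell receptor signaling, at between 32.9 and 75.1 and between 23.8 and 47.5. No other marker of this list exceeded 6.02 in any library. Cd8a and the perforin gene Prf1 had means of 1.57 and 1.99 in treated libraries and were at 0 in all 4 control libraries, whereas Cd4 and Cd2 had means of 0.588 and 1.13 in treated and 2.03 and 1.87 in control libraries. Ptprc, which encodes CD45, stood at 5.77 in 5N, 1.51 in 6L, 21.1 in 6R and 11.6 in 10N, and at 0, 2.38, 2.72 and 4.98 in 5L, 7N, 8N and 9L. The markers did not move together, since 6L, the library with the most Ccl5, had the least Ptprc of the treated libraries but the highest T and NK cell sum of all 8, with Lck at 75.1. Libraries 6R and 9L had nearly the same T and NK cell sum, 60.8 and 60.9, with Ccl5 at 37.3 and 3.03. Lck made up 39.7 and 47.5 of these sums, and Ptprc stood at 21.1 and 4.98 in these 2 libraries. The leukocyte list as a whole, most of it the actin-bundling gene Lcp1, summed to 1429 to 1561 in treated and 1156 to 1611 in control libraries. The 10 macrophage and dendritic cell markers summed to 272 to 481 in treated and 187 to 433 in control libraries. Of them 7 were tested and none was called, with a median log2 difference of 0.55, and 0.41 without 5L. The widest ratio among the tested ones was that of the integrin gene Itgam, 2.03. The part of residual leukocytes in the Ccl5 difference was not tested.

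Ccl19 (ENSMUSG00000071005.7, chr4:42754525-42756577, minus strand) was next in size. It stood at 23.7 normalized reads in 5N, 27.2 in 6L, 12.0 in 6R and 31.9 in 10N with agonistic CD40 mAb. Isotype control libraries held 2.44 in 5L, 2.38 in 7N, 5.44 in 8N and 2.38 in 9L. The lowest treated library, 6R, lay above the highest control library, 8N. Group means came to 23.7 ± 8.48 and 3.16 ± 1.52 (SD, n = 4 each), a ratio of 7.49 and a log2 difference of 2.55 with a standard error of 0.47. The isotype control means rest on 17 reads, with 1 read each in 5L and 7N, 4 in 8N and 11 in 9L. The exact 95% Poisson interval of 6R, from 7.35 to 18.6, overlapped those of 5L, 7N and 8N, whose upper bounds were 13.6, 13.3 and 13.9. Taken singly, none of these 3 was set apart from 6R by its interval, and such overlap is no test of a difference. Library 9L had an upper bound of 4.27.

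Ccl21a (ENSMUSG00000094686.1, chr4:42772860-42773993, minus strand) was far more abundant and did not separate the groups. Its normalized reads were 161 in 5N, 638 in 6L, 412 in 6R and 207 in 10N with agonistic CD40 mAb. With isotype control they were 83.1 in 5L, 99.9 in 7N, 404 in 8N and 238 in 9L. Isotype control library 8N lay above 5N and 10N and close to 6R, so that the groups overlapped widely. The means of 355 ± 218 and 206 ± 149 (SD, n = 4 each) gave a ratio of 1.72, and the log2 difference was 0.86 with a standard error of 0.54. This difference depended on single libraries, as it was 0.51 without 6L and 1.28 without 8N, where Ccl21a passed the threshold. Without 5L and 7N it was −0.02. Summing Ccl21a, Ccl21b and Ccl21c, without Gm1987 and the other copies, gave 0.77.

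CCL21 is a product of lymphatic endothelium, and lymphatic markers were compared with it. Reln, which encodes the secreted glycoprotein reelin and is a marker of lymphatic endothelium, stood at 110, 343, 176 and 114 normalized reads in 5N, 6L, 6R and 10N. In 5L, 7N, 8N and 9L it stood at 51.3, 47.6, 187 and 126. Ccl21a and Reln were both highest in 6L and both lowest in 5L and 7N. Lyve1, the hyaluronan receptor of lymphatic vessels, ranged from 278 to 1026 and from 85.5 to 509, and it too was highest in 6L and lowest in 5L. The other markers did not all follow, as Prox1 and Flt4, a transcription factor and a growth factor receptor of lymphatic endothelium, were highest in 6L too but lowest of the treated libraries in 6R, where Ccl21a was second highest, and Pdpn was highest in 7N. Log2 differences were 0.92 for Reln, 0.94 for Lyve1 and 0.88 for Mmrn1, against 0.30 for Prox1, 0.19 for Flt4 and 0.09 for Pdpn. The 6 lymphatic markers summed to 3249 to 5700 in treated and 2124 to 4116 in control libraries, and none of the 6 was called. Set against the mean log2 level of these 6 markers in the same library, the log2 difference was 0.31 for Ccl21a and 2.00 for Ccl19. Leaving out 1 library moved it to between 0.11 (without 6R) and 0.53 (without 5N) for Ccl21a, and to between 1.71 and 2.22 for Ccl19. The share of lymphatic endothelial cells in the Ccl21a difference was not tested.

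**Figure D2:**
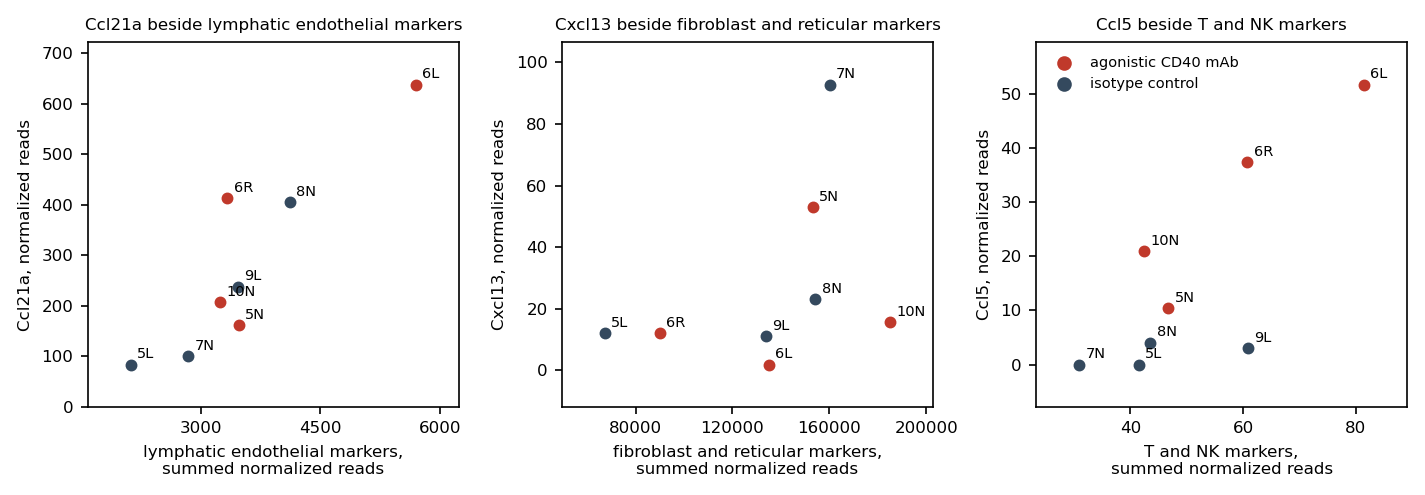
Normalized reads of 3 chemokines (vertical axes) against the summed normalized reads of a list of cell type markers (horizontal axes) in the 8 libraries, labelled by mouse and colored by treatment. Ccl21a and the lymphatic sum were both highest in 6L and lowest in 5L, Cxcl13 was highest in 7N and the fibroblast sum in 10N, and Ccl5 and the T and NK cell sum were both highest in 6L. Lck alone made up 75.1 of the 81.5 normalized reads of the T and NK cell sum in 6L.

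Cxcl12 (ENSMUSG00000061353.11, chr6:117168535-117181367, plus strand) encodes the homeostatic ligand of CXCR4 and ACKR3 and had the most reads of the 7. It stood at 5371 normalized reads in 5N, 3139 in 6L, 3547 in 6R and 3754 in 10N with agonistic CD40 mAb, and isotype control gave 2251 in 5L, 3159 in 7N, 2988 in 8N and 2816 in 9L. Only 6L and 7N crossed, 3139 against 3159, and 5N stood above the rest. The means were 3953 ± 979 and 2804 ± 394 (SD, n = 4 each), with a ratio of 1.41 and a log2 difference of 0.48 with a standard error of 0.18, the smallest standard error of the 7. The ratio was 1.24 without 5N and 1.51 without 6L, where the gene passed the threshold. Set against the mean log2 level of the fibroblast markers in the same library, the log2 difference of Cxcl12 was 0.30. This was 0.12 without 6R and 0.50 without 5L. The part of fibroblasts in the Cxcl12 values was not tested.

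Cxcl13 (ENSMUSG00000023078.6, chr5:95956951-95961068, plus strand), which encodes the B-cell attractant of lymphoid follicles, was the one gene with a lower mean under agonistic CD40 mAb. Treated libraries held 53.1 normalized reads in 5N, 1.89 in 6L, 12.0 in 6R and 15.7 in 10N, and isotype control libraries 12.2 in 5L, 92.8 in 7N, 23.1 in 8N and 11.1 in 9L. A single library in each group stood far above the others, 5N and 7N, and the rest overlapped. Means of 20.7 ± 22.4 and 34.8 ± 39.0 (SD, n = 4 each) differed by less than either SD. The ratio of 0.594 became 1.34 without 7N, 1.21 without 5L and 7N and 0.284 without 5N, and the log2 difference of −0.85 had a standard error of 0.88.

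Fibroblast markers did not give a single order beside Cxcl13. Dcn, which encodes the proteoglycan decorin, was highest in 7N and 5N, at 5624 and 5099 normalized reads, as were Pdgfra and Pdpn. Col1a1, a chain of type I collagen, was highest in 10N and 8N, and the sum of the 6 markers was highest in 10N, at 185100. Set against the mean log2 level of these 6 markers in the same library, the log2 difference of Cxcl13 was −1.03, or −0.30 without 6L and −1.53 without 5N. CXCL13 is known as a product of fibroblastic stromal cells, and their part in its values was not tested.

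Cxcl16 (ENSMUSG00000018920.11, chr11:70453983-70459984, minus strand) is a membrane chemokine that also acts as a scavenger receptor. Its normalized reads were 88.7 in 5N, 99.6 in 6L, 120 in 6R and 109 in 10N with agonistic CD40 mAb, and 19.6 in 5L, 99.9 in 7N, 92.6 in 8N and 74.1 in 9L with isotype control. Treated libraries were close to each other, while 5L lay far below the other 3 isotype control libraries, which partly overlapped the treated ones. The means of 104 ± 13.5 and 71.5 ± 36.3 (SD, n = 4 each) gave a ratio of 1.46 and a log2 difference of 0.76 with a standard error of 0.44. Without 5L the ratio was 1.18 and the log2 difference 0.23. CXCL16 is also made by macrophages and dendritic cells, and set against the mean log2 level of their 10 markers in the same library its log2 difference was 0.29, or −0.12 without 5L and 0.62 without 8N. Exons of Zmynd15 overlap Cxcl16 on the opposite strand, and the library kit does not keep the strand, so reads of the 2 genes cannot be told apart there.

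Cx3cl1 (ENSMUSG00000031778.13, chr8:94772009-94782427, plus strand) encodes fractalkine, a mucin-stalked chemokine of inflamed endothelium. It stood at 214 normalized reads in 5N, 332 in 6L, 325 in 6R and 320 in 10N with agonistic CD40 mAb, and at 83.1 in 5L, 262 in 7N, 246 in 8N and 227 in 9L with isotype control. Apart from 5N the treated libraries lay above all isotype control libraries, and 5L was again the lowest. Means were 298 ± 56.1 and 205 ± 82.2 (SD, n = 4 each), with a ratio of 1.46 and a log2 difference of 0.65 with a standard error of 0.33. Without 5L these fell to 1.22 and 0.26, and without 7N they were 1.61 and 0.81, where the gene passed the threshold. Library 5L, the lowest or tied lowest of all 8 for Ccl5, Ccl21a, Cxcl12, Cxcl16 and Cx3cl1, was also the shallowest and had the highest sum of melanoma markers.

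**Figure D3:**
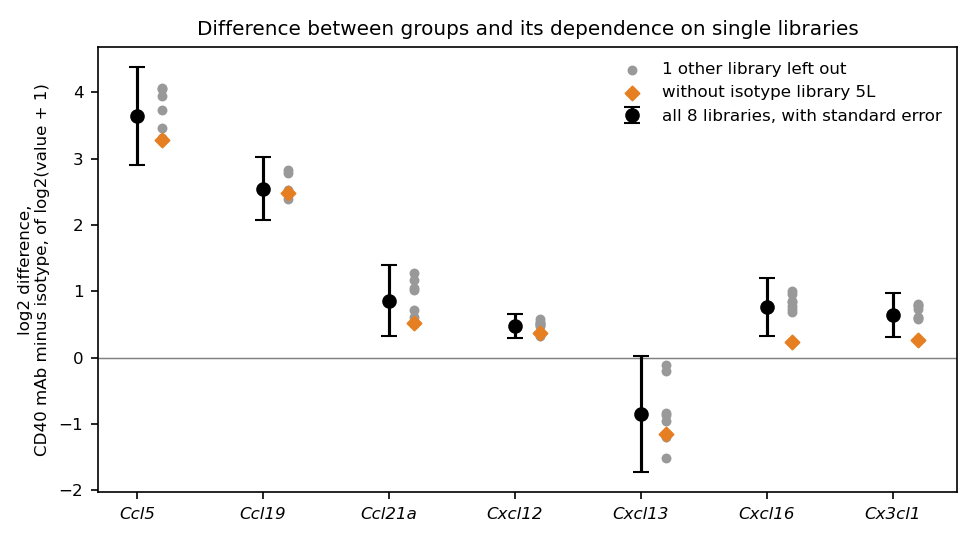
Difference in mean log2(value + 1), agonistic CD40 mAb minus isotype control (vertical axis), for the 7 chemokines with all 8 libraries (black, bars are standard errors), with each other library left out in turn (gray) and without isotype control library 5L (orange). Ccl5 and Ccl19 stay above 2, Cxcl16 and Cx3cl1 fall to 0.23 and 0.26 without 5L, and Cxcl13 spans −1.52 to −0.11.

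Levels were compared between genes per kilobase of merged exons, which join the exons of all annotated transcripts of a gene. The order depends on this choice of length, 8176 bases for Cxcl12 and 870 for Ccl21a. For Ccl21a it also depends on how reads of its copies were counted. With isotype control Cxcl12 came first at 343 ± 48.2 normalized reads per kilobase (SD, n = 4), followed by Ccl21a at 237 ± 171, and the ranges of these 2 genes overlapped. Cx3cl1 followed at 52.0 ± 20.9, Cxcl13 at 30.3 ± 34.0 and Cxcl16 at 23.7 ± 12.0, all 3 with overlapping ranges. Ccl19 at 3.65 ± 1.76 and Ccl5 at 1.85 ± 2.19 were lowest, and they too overlapped each other.

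With agonistic CD40 mAb Cxcl12 at 483 ± 120 normalized reads per kilobase and Ccl21a at 408 ± 251 were again the most abundant, with overlapping ranges, Ccl21a being the higher in 6L and 6R, and Cx3cl1 followed at 75.8 ± 14.3 (SD, n = 4 each). Below them Cxcl16 at 34.6 ± 4.47, Ccl5 at 31.3 ± 18.9, Ccl19 at 27.3 ± 9.79 and Cxcl13 at 18.0 ± 19.5 had overlapping ranges and no clear order. Ccl5 took 2.79% ± 1.33 of the summed level of the 7 genes in treated and 0.222% ± 0.256 in control libraries (SD, n = 4 each). For Ccl19 these shares of the summed level were 2.62% ± 1.19 and 0.532% ± 0.161, and for Cxcl12 they were 46.4% ± 15.5 and 52.4% ± 12.1. Even where they stood highest, Ccl5 and Ccl19 were thus minor parts of this summed level.

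**Figure D4:**
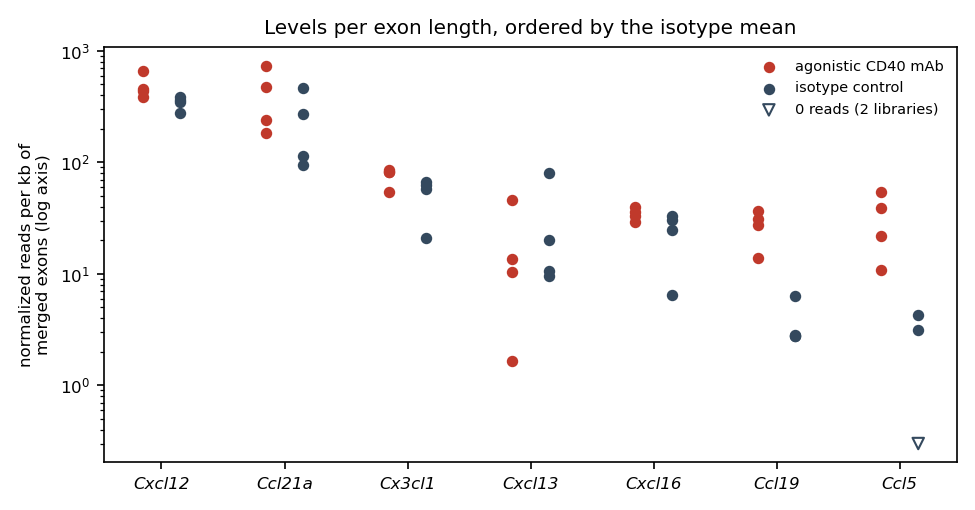
Normalized reads per kilobase of merged exons (vertical axis, log scale) for the 7 chemokines, ordered by the isotype control mean, with 1 point per library and an open triangle at the bottom for the 2 isotype control libraries with 0 reads of Ccl5. Cxcl12 and Ccl21a lie highest in both groups, and Ccl5 and Ccl19 lie near Cxcl16 with agonistic CD40 mAb and below it with isotype control.

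The receptors of these chemokines were low in the sorted cells, or overlapped between the groups. Cxcr4 and Ackr3, which bind CXCL12, were not called in either direction (1.52% of all genes tested were called in limma). Cxcr4, the signaling receptor of CXCL12 and a gene of endothelial tip cells, ranged from 853 to 1619 normalized reads with agonistic CD40 mAb and from 667 to 1466 with isotype control (log2 difference −0.02, standard error 0.26, unadjusted p = 0.947, limma). Ackr3, its scavenging receptor, ranged from 880 to 1281 and from 743 to 1435, with a log2 difference of 0.06.

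The leukocyte-borne receptors were at the bottom of the scale. Ccr3 was at 0 in all 8 libraries. Ccr7, the receptor of CCL19 and CCL21, did not exceed 1.74 normalized reads, Cxcr5 2.41, Cxcr6 4.65 and Cx3cr1 4.07, and Ccr1 reached 15.5. These genes were too low to be tested, except where all genes with a read were taken, and then Cxcr5 was called higher, at 1.06, 0, 2.41 and 1.74 in 5N, 6L, 6R and 10N and at 0 in all control libraries.

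Atypical chemokine receptors, which bind chemokines without signaling to migration, numbered 7. Of these 5 were tested and 1 was called higher (against 1.28% of all genes tested). That gene was Ccrl2, which presents the attractant chemerin on activated endothelium, at 65.5 ± 22.4 and 31.9 ± 10.8 normalized reads (SD, n = 4 each). Its ratio was 2.05 and its log2 difference 1.01 (unadjusted p = 0.0126, adjusted p = 0.9997, limma), and it was 0.60 and not called without 5L and 7N. Ackr1, which carries chemokines across venular endothelium, had a log2 difference of 0.35, and Ackr2, a scavenger of inflammatory CC chemokines on lymphatic vessels, one of 0.42 (−0.08 without 5L), and neither was called.

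Genes that release chemokines from the membrane or build the heparan sulfate on which they are held were tested in full. By limma, edgeR or DESeq2, 0 of 24 were called (1.52% of all genes tested were called in limma). Among them 0 had an unadjusted p under 0.05 in limma, and the median log2 difference was 0.09. Adam10, a protease that sheds CXCL16 and CX3CL1, stood at 2406 ± 258 and 2507 ± 258 normalized reads (SD, n = 4 each). Timp3, an inhibitor of such proteases, had a log2 difference of 0.48 (unadjusted p = 0.0959, limma), which passed the threshold without 7N at 0.68 and was 0.21 without 5L. Hspg2, the basement membrane proteoglycan perlecan, had one of 0.12, Hs6st1 one of 0.20 and Hs2st1 one of −0.17, the last 2 being sulfotransferases of heparan sulfate.

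CCL19, CCL21 and CXCL13 are known from lymphoid tissue, where lymphocytes enter through high endothelial venules, and genes of these vessels were therefore looked at. Of 18 such genes 14 were tested, and 2 were called higher (against 1.28% of all genes tested), the adhesion molecules Icam1 and Vcam1. Icam1 stood at 517 to 632 normalized reads with agonistic CD40 mAb and at 257 to 500 with isotype control, a ratio of 1.54 (unadjusted p = 0.0111, limma). Vcam1 stood at 671 to 758 and at 181 to 583, a ratio of 1.63 (unadjusted p = 0.0204, limma). Neither group pair overlapped, but the ratio limit was missed without 5L by both, at log2 differences of 0.53 for Icam1 and 0.46 for Vcam1 (unadjusted p = 0.0235 and 0.00494, limma), and by Icam1 also without 6L (0.65) or 7N (0.55). Spns2, which exports sphingosine 1-phosphate, had a log2 difference of 0.28, Cd34 one of 0.10 and Podxl one of 0.27, and none of these 3 was called.

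Lymphotoxin β receptor signaling through non-canonical NF-κB is known to maintain CCL19, CCL21 and CXCL13 in lymphoid stroma, and CD40 acts through the same branch. Of 14 such genes 11 were tested and 0 were called by limma, edgeR or DESeq2 (1.52% of all genes tested were called in limma). In limma 0 had an unadjusted p under 0.05. The log2 difference was above 0 for 10 of the 11, with a median of 0.23, and 0.13 without 5L. Relb, a transcription factor of this branch, stood at 199 ± 40.4 and 159 ± 31.6 normalized reads (SD, n = 4 each), and its precursor partner Nfkb2 at 493 ± 88.3 and 419 ± 61.0. Map3k14, the kinase NIK, had a log2 difference of 0.40 and Ltbr, the receptor, one of 0.17, and Chuk and Traf3 had differences of −0.09 and 0.03.

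Among other chemokine ligands 32 were in the file, 20 were tested and 4 were called higher (against 1.28% of all genes tested). These were the CXCR3 ligands Cxcl9, Cxcl10 and Cxcl11, and Ccl8, which was named after its values were seen. Cxcl9 had the largest ratio of those with many reads, 4.10, from 3277 ± 1377 against 800 ± 556 normalized reads (SD, n = 4 each, unadjusted p = 0.00848, limma). Cxcl10 had a ratio of 2.68, Cxcl11 one of 6.28 at means of 13.1 and 2.08, and Ccl8 one of 1.83. Cxcl11 passed the expression limit only through the treated libraries. No order of Ccl5 and Ccl19 against Cxcl9 held in all settings, since with a pseudocount of 10 the log2 differences of the 3 genes were 1.66, 1.32 and 2.52, and that of Cxcl9 was 2.58 with all libraries and 1.58 without 5L. Cxcl14 and Cxcl1, among the most abundant, had log2 differences of 0.25 and 0.62 and were not called, although without 5L these were −0.21 and 0.08, and Cxcl1 passed the threshold without 7N. The median log2 difference of the 20 was 0.55, and 0.10 without 5L.

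Chemokine genes lie in clusters, and protein-coding genes within 100 kb of each of the 7 were examined. Of 33 such neighbors 17 were tested and 2 were called higher (against 1.28% of all genes tested). These were Ccl19, as the neighbor of Ccl21a, and Zmynd15, whose exons overlap Cxcl16, with 13.4 ± 3.96 and 4.16 ± 3.05 normalized reads (SD, n = 4 each). Ccl19 is itself one of the 7, and Zmynd15 passed the expression limit only through the treated libraries. Reads of Zmynd15 and Cxcl16 cannot be told apart where their exons overlap. Neither call is thus independent of the 7 chemokines, and no other neighbor was called. Near Ccl5, the chemokine genes Ccl9 and Ccl6 had log2 differences of 0.21 and 0.11, and Taf15 and Mmp28 had differences of −0.11 and 0.05. None of these 4 neighbors of Ccl5 was called. Ccl22 and Ccl17, which lie 20310 and 28026 bases from Cx3cl1, were too low to be tested, and no protein-coding gene lies within 100 kb of Cxcl12 or Cxcl13.

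Genes whose levels followed each chemokine most closely over the 8 libraries were found by the mean absolute distance of log2(value + 1), after each gene was centered on its own mean. For Ccl5 these were Cd74, a chaperone of MHC class II molecules, at a distance of 0.31, Phf11b at 0.53 and Ido1, the tryptophan-degrading enzyme, at 0.54, where the median over all tested genes was 1.82. Cd74 stood at 385, 1353, 1223 and 652 normalized reads in 5N, 6L, 6R and 10N, and at 31.8, 33.3, 65.3 and 124 in 5L, 7N, 8N and 9L. It shared with Ccl5 the order of the treated libraries, 6L first and 5N last.

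Ccl19 was nearest to the guanylate-binding protein gene Gbp10 at 0.49, the class I gene H2-Q5 at 0.59 and complement C3 at 0.60, against a median of 1.28. Gbp10 stood at 141, 185, 250 and 256 normalized reads in 5N, 6L, 6R and 10N and at 14.7, 14.3, 30.0 and 14.3 in 5L, 7N, 8N and 9L, with 8N highest among the isotype control libraries as it was for Ccl19. Ccl21a was nearest to Gm1987 at 0.0076, and then to Reln at 0.17 and Mmrn1 at 0.21, a further lymphatic marker. Gm1987 is a gene model listed separately that stood slightly below Ccl21a in every library. Whether both count the same reads was not tested, so Gm1987 is not taken as a separate gene that follows Ccl21a.

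Cxcl16 and Cx3cl1 resembled each other, Cx3cl1 being the third nearest to Cxcl16 at 0.18 after Ddx60 at 0.15 and Serping1 at 0.17. Ddx60 is an interferon-inducible helicase and Serping1 the C1 inhibitor of complement. The nearest of Cx3cl1 were A230050P20Rik at 0.13, Arhgap28 at 0.16 and the interferon-inducible Oasl2 at 0.16. Cxcl12 was nearest to Pcdhb20, Arl1 and Pcdhb14 at 0.13, 0.13 and 0.14, and Cxcl13 to Frem1 at 0.50, Cdh10 at 0.64 and Arhgap20 at 0.64. Frem1, an extracellular matrix gene, stood at 71.4 and 29.9 normalized reads in 7N and 5N and between 7.17 and 28.6 in the other 6 libraries. The 3 nearest genes of Ccl5 and the 3 of Ccl19 were all called higher, and of those of the other 5 chemokines none was. Since all these libraries enter both the distance and the call, this gives no independent support.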

How the data were processed

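RNA of CD45- CD31+ cells from 8 B16-F10 tumors was sequenced with 1 library per tumor from about 10 ng of RNA (TruSeq RNA v2). The deposited signal values are gene counts that the authors divided by DESeq2 size factors after alignment to mm10. The study's methods describe a later correction for harvest day, flooring and trimming, which are not visible in these values. Although the methods also name a later harvest, the labels give all 8 libraries the same one, so the fit holds no such term and its effect was not tested. The submitters' processing notes name CASAVA 1.8, Bowtie2 2.2.1 and Partek 6.6. Whole reads could be recovered from the steps between values (99.9% of values were whole within 0.1 read). Intervals computed on these reads describe counting error alone.

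Values were fitted as log2(value + 1) with limma 3.58.1 (R 4.3.3) over 12969 genes (larger group mean above 10), with treatment as the only term, variance moderated along its trend, and Benjamini-Hochberg adjustment. The ratio and SD refer to normalized reads without logarithm. Fits were tested on simulated data. edgeR 4.0.16 and DESeq2 1.42.0 on the recovered reads were alternatives, as were other pseudocounts, expression limits, scalings and leaving out libraries. Positions and exon lengths came from GENCODE M21 (mm10). The chemokines and gene lists were chosen with earlier results of these data known. Genes were named by a rule: receptors, from every other list 3 by smallest p and 3 by highest mean, and the 3 with the nearest profile for each chemokine. Markers and neighboring genes were added to these. Tumors are separate mice by their names, although 6L and 6R share a number. A few genes that meet this rule are not reported here. Macrophage libraries of the study's model were not used here.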

Additional observations from a re-analysis of the deposited data

Results flagged for a closer look

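For the 7 chemokines, the list genes named by the rule and the genes with the nearest profiles, but not for marker or neighboring genes, the highest or lowest value in each group of 4 libraries was compared with the nearest of the other 3, and in 13 of 117 groups the gap, as a share of the group's range, was above Dixon's 95% critical value, where chance gives about 1 in 20. Among the chemokines, Ccl19 stood at 5.445 normalized reads in isotype control library 8N and at 2.379 to 2.444 in the other 3. Cxcl13 stood at 92.78 in isotype control library 7N, against 11.05 to 23.14 in the others. Cx3cl1 stood at 213.9 in 5N, below the 320.0 to 332.3 of the other treated libraries. Of the receptors, Ccr7 was at 0.8668 in isotype control library 9L and at 0 in the others, and Cxcr6 at 2.722 in 8N, against 0 to 0.2167, at levels where 1 read is worth 2.44 in 5L, 2.38 in 7N and 1.36 in 8N.

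Isotype control library 7N also held a low value of Hs6st1, 233.1, and a high value of Chuk, 856.5. Library 5L held a high value of Traf3, 716.0, and low values of C3, 1217, and Oasl2, 271.3. In 8N the values of Cxcl10, 319.9, and Gbp10, 29.95, were the highest of the isotype control. Spns2 stood at 1387 in treated library 6L, against 1031 to 1055 in the other 3.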

How the results depend on the processing

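The labels carry no replicate numbers, and each tumor has its own mouse name. The names of the groups share a single number (5N and 5L), so no paired analysis was possible. Within the treated group, 6L and 6R share a number too. Leaving out each library in turn, the log2 difference ranged from 3.28 to 4.06 for Ccl5, 2.38 to 2.83 for Ccl19, 0.51 to 1.28 for Ccl21a, 0.32 to 0.58 for Cxcl12, −1.52 to −0.11 for Cxcl13, 0.23 to 1.00 for Cxcl16 and 0.26 to 0.81 for Cx3cl1. Genes called higher then numbered 124 to 234 and genes called lower 27 to 123, the most without 5L, and calls ranged from 0 to 2 for high endothelial venule genes, 0 to 1 for cleavage and presentation genes and 3 to 8 for other chemokines. With a pseudocount of 0.1 the log2 difference of Ccl5 was 5.41, and with 10 those of Ccl5 and Ccl19 were 1.66 and 1.32. With all genes that held a read, 331 were called higher and 93 lower, and 1 receptor was called. With a group mean limit of 50, 13 were called lower, and Ccl5, Ccl19 and Cxcl13 were not tested. Genes called lower numbered 57 without the variance trend, 47 with edgeR and 58 with DESeq2, which gave 3 and 64 genes with an adjusted p under 0.05 against 2 in limma. Without 5L and 7N, an alternative chosen after seeing the data, 56 were called lower, the log2 difference of Ccl21a reversed to −0.018, and calls fell to 0 for atypical receptors and high endothelial venule genes. The causes were not tested. In the other 142 comparisons of a main result with an alternative fitted to these libraries, the direction of the log2 difference was kept, or a count stayed within 1.5 times, although the ratio of means of Cxcl13 turned from 0.594 to 1.21 without 5L and 7N. Depth limits Ccl5, Ccl19 and Cxcl13 most, with 17, 17 and 112 isotype control reads.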
